A study of Mus musculus with 4 samples.

Results

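Glycolysis and hypoxia response genes were examined in 4T1Ch9 tumors, which arise from a cherry-tagged mouse line of triple-negative breast cancer (TNBC) placed in the mammary fat pad of Balb/c mice. The set held 35 genes chosen by function, with earlier results of these data known. Of these, 31 had a probe set whose only gene symbol in the array annotation was the gene itself, out of 17097 genes measured. Mice were injected with 50000 cells, tumors grew for 10 days, and treatment then lasted 7 days. The MEKi group received trametinib, which blocks the kinases directly above ERK in the MAPK pathway, at 1 mg/kg daily, and the vehicle group received the carrier solution alone. Bulk tumor RNA of each group was read on 2 arrays (Affymetrix MG-430PM), which are named MEKi 1, MEKi 2, vehicle 1 and vehicle 2 after their labels. No source used here says if the 2 arrays of a label stem from different mice, and p-values therefore reflect array-to-array spread that could be technical. Values are log2 expression (RMA, a background-corrected and normalized probe set summary), and where several probe sets named a gene, the brightest over the 4 arrays stood for it. Pgam1 shared its probe set with a pseudogene, and Gpi1, Eno1 and P4ha1 were named by no probe set in the annotation, so these 4 genes were not analysed here.

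Glycolysis splits glucose to pyruvate in the cytosol, and tumor cells often run it at a high rate and export the product as lactate. When oxygen is short, the prolyl hydroxylases encoded by the Egln genes no longer mark the HIF-α proteins for destruction. HIF then binds short DNA elements with the core ACGTG or GCGTG and raises transcription of glucose transporters, most glycolytic enzymes, angiogenic factors, pH regulators and its own hydroxylases. ERK signaling and Myc are further known inputs to the same genes in tumors.

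Promoter sequences are shown for the members whose levels ranged furthest over the 4 arrays and that the table of promoters held (Egln3, Car9, Aldoc, P4ha2 and Adm), and for the 2 members that ranged least (Pfkfb3 and Kdm3a), so that the hypoxia element core can be seen in both. Each runs 5′ to 3′ on the strand of the gene, from 250 bases before to 50 bases after the most upstream start site, from RefSeq on GRCm38.p6. Capitals mark ACGTG or GCGTG on either strand, which on the printed strand reads CACGT or CACGC when the core lies on the other.
Egln3 (chr12:54203825-54204124, minus strand): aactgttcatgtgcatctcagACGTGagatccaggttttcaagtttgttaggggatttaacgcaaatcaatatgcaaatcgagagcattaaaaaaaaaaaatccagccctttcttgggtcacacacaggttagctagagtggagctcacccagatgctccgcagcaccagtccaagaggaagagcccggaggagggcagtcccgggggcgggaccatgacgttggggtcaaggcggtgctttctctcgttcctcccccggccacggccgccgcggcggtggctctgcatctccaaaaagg
Car9 (chr4:43506776-43507075, plus strand): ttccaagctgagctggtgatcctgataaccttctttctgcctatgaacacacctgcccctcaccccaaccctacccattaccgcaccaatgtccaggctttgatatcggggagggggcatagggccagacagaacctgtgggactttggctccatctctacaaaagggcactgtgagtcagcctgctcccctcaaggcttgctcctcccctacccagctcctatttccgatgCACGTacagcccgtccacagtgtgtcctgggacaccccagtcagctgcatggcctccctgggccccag
Aldoc (chr11:78322823-78323122, plus strand): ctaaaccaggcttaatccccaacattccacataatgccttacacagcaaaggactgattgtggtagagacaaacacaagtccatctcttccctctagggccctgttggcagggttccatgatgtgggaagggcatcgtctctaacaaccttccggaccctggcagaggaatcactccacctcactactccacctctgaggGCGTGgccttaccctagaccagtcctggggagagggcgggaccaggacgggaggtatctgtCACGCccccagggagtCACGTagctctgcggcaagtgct
P4ha2 (chr11:54100674-54100973, plus strand): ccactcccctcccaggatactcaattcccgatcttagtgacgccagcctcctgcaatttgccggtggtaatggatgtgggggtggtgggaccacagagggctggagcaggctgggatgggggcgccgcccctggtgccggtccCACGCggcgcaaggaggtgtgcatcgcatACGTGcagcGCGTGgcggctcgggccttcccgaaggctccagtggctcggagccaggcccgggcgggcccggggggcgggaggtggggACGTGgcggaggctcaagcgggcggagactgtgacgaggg
Adm (chr7:110627407-110627706, plus strand): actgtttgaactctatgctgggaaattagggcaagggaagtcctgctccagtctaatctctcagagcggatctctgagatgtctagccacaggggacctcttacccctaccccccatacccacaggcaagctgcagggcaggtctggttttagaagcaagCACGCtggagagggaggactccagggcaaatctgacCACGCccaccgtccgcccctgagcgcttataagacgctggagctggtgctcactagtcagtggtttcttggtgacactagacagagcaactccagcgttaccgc
Pfkfb3 (chr2:11553880-11554179, minus strand): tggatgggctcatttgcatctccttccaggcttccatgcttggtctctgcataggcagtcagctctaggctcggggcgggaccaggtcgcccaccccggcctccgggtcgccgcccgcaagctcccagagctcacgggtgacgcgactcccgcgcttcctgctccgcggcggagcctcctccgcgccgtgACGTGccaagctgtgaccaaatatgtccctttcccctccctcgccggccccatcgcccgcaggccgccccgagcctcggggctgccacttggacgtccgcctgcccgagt
Kdm3a (chr6:71632868-71633167, minus strand): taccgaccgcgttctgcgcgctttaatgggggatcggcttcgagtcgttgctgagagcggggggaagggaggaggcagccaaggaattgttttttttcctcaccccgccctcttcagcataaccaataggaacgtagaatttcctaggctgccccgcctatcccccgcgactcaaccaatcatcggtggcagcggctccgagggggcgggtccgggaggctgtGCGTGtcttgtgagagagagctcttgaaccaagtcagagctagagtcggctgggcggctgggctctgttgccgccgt
A core stood in 25 of 33 member windows (75.8%) and in 11848 of 27025 windows of all genes in the table (43.8%). Among members with expression values it stood in 9 of 13 windows (69.2%) of those that ranged over more than 1 log2 unit and in 13 of 16 windows (81.2%) of the rest, so most windows of both groups carried it. The core overlaps CACGTG, the element bound by Myc and its partners, which stood in 3 of the 33 member windows (9.09%) and in 7.24% of all windows. These matches describe letters in the window and not binding.

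The 4 arrays did not group by label. Across the 45037 tested probe sets, Pearson's r was 0.927 between MEKi 1 and MEKi 2 and 0.959 between vehicle 1 and vehicle 2, whereas it was 0.992 between MEKi 1 and vehicle 2 and 0.978 between MEKi 2 and vehicle 1. B cell genes followed the same pairs, with summed levels on the log2 scale of 14.29 (MEKi 1) and 8.55 (MEKi 2), against 9.24 (vehicle 1) and 13.83 (vehicle 2). The tumor cell keratin genes Krt8 and Krt18 were well above the floor of the arrays in all 4, and both were highest in MEKi 2 and vehicle 1. Krt8 read 10.54 and 12.11 in the MEKi arrays, against 12.92 and 11.75 in the vehicle arrays. Krt18 read 10.43 and 11.87, against 12.78 and 11.78. Epcam, an epithelial surface protein gene, read 6.54 in MEKi 2 and 8.79 to 9.23 in the others. Array medians lay between 4.98 and 5.14 and 25th percentiles between 3.85 and 3.88 over the 4 arrays, whose small number limits precision. Dusp6, a phosphatase gene that ERK output raises and MEK inhibition is known to lower, read 9.59 and 12.30 in the MEKi arrays, against 12.02 and 10.96 in the vehicle arrays, so the highest of the 4 values stood in an array labelled MEKi. Of 16 such MAPK output genes, 14 were highest in MEKi 2 and vehicle 1. In these genes MEKi 2 thus sided with vehicle 1, an order opposite to that of the B cell genes. The parts of ERK output and of cell content in it were not tested. Whether 2 arrays carry each other's label was not tested either. No label was changed, but every difference by label below would have another size, and could have another sign, if labels were exchanged. In whole tumor RNA, fewer cells of a type and less RNA per cell cannot be told apart.

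By label, no glycolysis or hypoxia gene passed the test between MEKi and vehicle. With limma (two-sided, Benjamini-Hochberg over all probe sets), 0 of 31 members met all 3 criteria for a call (unadjusted p under 0.05, more than 1.5-fold apart, adjusted p under 0.1), against 0% of all 45037 probe sets. At an unadjusted p under 0.05 there were 0 members and 406 probe sets. The log2 fold change of MEKi over vehicle was positive in 18 members and negative in 13, and its median was 0.04, beside 0.01 over all 17097 genes. The 2 MEKi arrays lay above both vehicle arrays in 0 of 31 members, against 11.0% of all genes, and below both in 0 of 31, against 10.2%. With the brightest probe set, the labelled groups thus overlapped in every measured member. Among the 23 further, dimmer probe sets, the groups did not overlap on 1 of Pfkfb3 and 1 of Pfkl. That is to be read beside the 11.0% and 10.2% of all genes. The Pfkfb3 one read 4.47 and 4.69 in the MEKi arrays, against 4.15 and 4.19 in the vehicle arrays, all below the array medians (4.98 to 5.14). The Pfkl one read 6.73 and 6.81 in the MEKi arrays, against 7.10 and 6.95 in the vehicle arrays. The median was 0.31 without MEKi 1, −0.24 without MEKi 2, 0.24 without vehicle 1 and −0.15 without vehicle 2, and 0 members were called in any of these fits. Centring each array on tumor epithelial genes added 1.02 to every log2 fold change and brought the members' median to 1.06, with 0 members and 16 probe sets called. In that fit the members of the 5 highest and 5 lowest fold changes all had the same SE, 0.74. That SE did not reflect the spread of each gene.

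The order of the arrays, in contrast, was shared by most members. Since members were chosen with earlier results of these data known, the counts below are a description and were not tested. MEKi 2 and vehicle 1 were the 2 highest arrays in 26 of 31 members, where 30.0% of all genes had this order, and MEKi 1 and vehicle 2 were the 2 highest in 2 of 31, where 29.5% of all genes did. MEKi 2 alone was the highest array in 23 of 31 (34.8% of all genes), and MEKi 1 was the lowest in 16 (30.0% of all genes) and vehicle 2 in 12 (16.7% of all genes). The range over the 4 arrays had a median of 0.96 log2 units in the members, against 0.55 in all genes, which include genes near the floor. It was over 2 in 6 members (Egln3, Car9, Aldoc, P4ha2, Ndrg1 and Adm), which is 19.4% of the 31, against 8.43% of all genes. It was under 0.5 in 10 members (32.3%), against 45.6% of all genes.

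**Figure D1:**
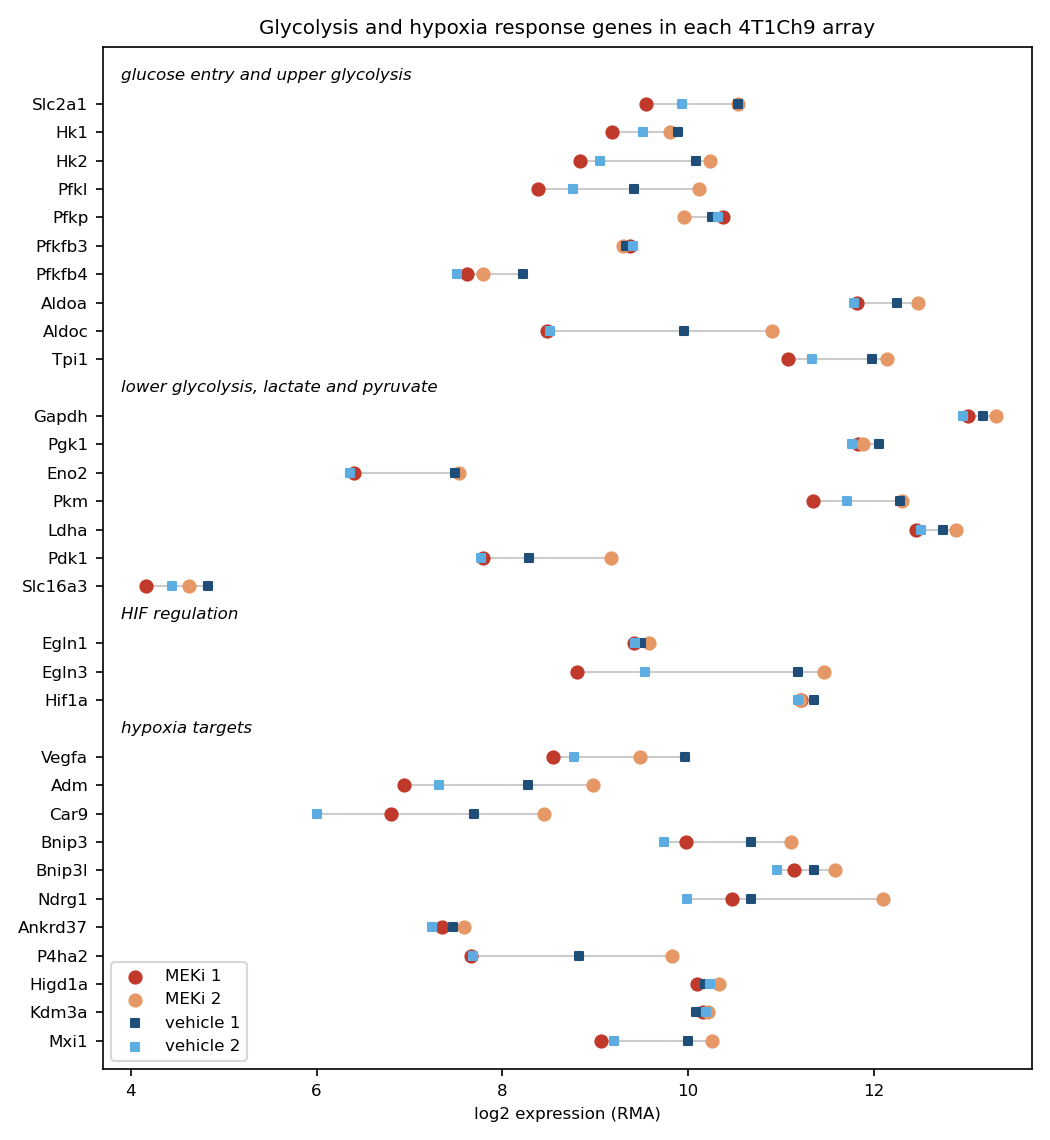
Log2 expression (RMA, horizontal axis) of the 31 measured glycolysis and hypoxia response genes in each 4T1Ch9 array, 1 point per array, with circles for MEKi 1 and MEKi 2 and squares for vehicle 1 and vehicle 2, and a grey line over the range of each gene. In 26 of 31 genes the MEKi 2 and vehicle 1 points lie to the right of the other pair, and for Egln3 the points run between 8.80 (MEKi 1) and 11.47 (MEKi 2).

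Of the genes for glucose entry and upper glycolysis, 8 of 10 were highest in MEKi 2 and vehicle 1. Slc2a1, which encodes the glucose transporter GLUT1, read 9.55 in MEKi 1 and 10.54 in MEKi 2, against 10.53 in vehicle 1 and 9.93 in vehicle 2. Hk2, the inducible hexokinase that traps glucose in the cell, read 8.84 and 10.24 in the MEKi arrays, against 10.09 and 9.05 in the vehicle arrays. Hk1, the more constitutive hexokinase, read 9.18 and 9.81 in the MEKi arrays, against 9.89 and 9.52 in the vehicle arrays, a narrower span, with vehicle 1 highest. In each of these genes 1 MEKi array lay at or near the top and the other at the bottom.

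Pfkl, the liver-type phosphofructokinase of the committed step, read 8.39 and 10.12 in the MEKi arrays, against 9.41 and 8.76 in the vehicle arrays. Pfkp, the platelet-type enzyme of the same step, ran the other way and was lowest in MEKi 2, at 10.37 and 9.96 in the MEKi arrays, against 10.26 and 10.32 in the vehicle arrays. These 2 isoform genes of 1 reaction therefore had different array orders, with a range of 1.73 for Pfkl and only 0.41 for Pfkp. Pfkm, a further phosphofructokinase gene outside the set, had the order of Pfkl. It read 7.05 and 8.59 in the MEKi arrays, against 8.02 and 7.21 in the vehicle arrays. The dimmer Pfkl probe set given above was highest in vehicle 1 and vehicle 2, so order also differed within Pfkl. Pfkfb3, which makes the phosphofructokinase activator fructose 2,6-bisphosphate, ranged least of all members, at 9.37 and 9.29 in the MEKi arrays, against 9.33 and 9.40 in the vehicle arrays. Its paralog Pfkfb4 read 7.62 and 7.79 in the MEKi arrays, against 8.23 and 7.51 in the vehicle arrays. Vehicle 1 was thus the array that stood apart for Pfkfb4, and none did for Pfkfb3.

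The aldolase genes split 6-carbon sugars, and both were highest in MEKi 2 and vehicle 1, over unequal spans. Aldoc, the brain-type aldolase, read 8.48 and 10.90 in the MEKi arrays, against 9.95 and 8.52 in the vehicle arrays, a range of 2.42. Aldoa, the muscle-type and ubiquitous form, read 11.81 and 12.47 in the MEKi arrays, against 12.24 and 11.79 in the vehicle arrays, a range of 0.68. All 4 Aldoa probe sets are of the x type, which can pick up related transcripts, and they ranged between 0.68 and 0.82. Tpi1, triosephosphate isomerase, read 11.07 and 12.14 in the MEKi arrays, against 11.97 and 11.33 in the vehicle arrays.

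All 7 measured genes of lower glycolysis, lactate and pyruvate handling were highest in MEKi 2 and vehicle 1. Eno2, the neuronal enolase, read 6.40 and 7.54 in the MEKi arrays, against 7.49 and 6.36 in the vehicle arrays. Pkm, pyruvate kinase, read 11.35 and 12.30 in the MEKi arrays, against 12.28 and 11.71 in the vehicle arrays. Pdk1, a kinase that inhibits pyruvate dehydrogenase and so limits the conversion of pyruvate to acetyl-CoA, read 7.80 and 9.17 in the MEKi arrays, against 8.28 and 7.77 in the vehicle arrays. The other members of this role spanned less. The ranges were 0.29 for Pgk1, 0.35 for Gapdh and 0.42 for Ldha, which encode phosphoglycerate kinase, glyceraldehyde-3-phosphate dehydrogenase and the lactate-forming dehydrogenase, all bright probe sets. Slc16a3, which encodes the lactate exporter MCT4, read 4.16 and 4.63 in the MEKi arrays, against 4.83 and 4.44 in the vehicle arrays. These readings lie near the floor of the arrays, so differences of Slc16a3 may be understated.

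Within the HIF system, only Egln3 spanned a wide range among the 3 members measured. Hif1a, the oxygen-regulated subunit whose protein rather than RNA responds to oxygen, read 11.21 and 11.20 in the MEKi arrays, against 11.36 and 11.18 in the vehicle arrays. Egln1, the main oxygen sensor of the family, read 9.41 and 9.58 in the MEKi arrays, against 9.50 and 9.42 in the vehicle arrays, and a further, dimmer Egln1 probe set ranged over 0.95. Egln3, the hydroxylase most strongly induced by HIF itself, read 8.80 and 11.47 in the MEKi arrays, against 11.18 and 9.53 in the vehicle arrays. Its range of 2.66 was the largest of all members, and its second probe set ranged over 2.65 with the same order. By label the Egln3 groups had means of 10.13 ± 1.88 in MEKi and 10.36 ± 1.17 in vehicle (SD, n = 2 each), a log2 fold change of −0.22 (SE 1.16, limma adjusted p = 1).

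Among the 11 further hypoxia targets, 9 were highest in MEKi 2 and vehicle 1. Adm, which encodes the vasodilator peptide adrenomedullin, read 6.94 and 8.98 in the MEKi arrays, against 8.28 and 7.32 in the vehicle arrays. Vegfa, the angiogenic growth factor gene, read 8.54 and 9.48 in the MEKi arrays, against 9.96 and 8.77 in the vehicle arrays. Vegfa was the target that was highest in vehicle 1. Its log2 fold change by label was the lowest of all members, −0.36 (SE 0.58, limma adjusted p = 1), and its other probe set gave 0.11.

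Car9, which encodes the cell-surface carbonic anhydrase that is among the most HIF-specific targets, read 6.80 and 8.45 in the MEKi arrays, against 7.70 and 6.01 in the vehicle arrays. P4ha2, a collagen prolyl hydroxylase subunit, read 7.66 and 9.82 in the MEKi arrays, against 8.82 and 7.68 in the vehicle arrays. Ndrg1, a stress-response gene that hypoxia induces in many cell types, read 10.47 and 12.09 in the MEKi arrays, against 10.68 and 9.99 in the vehicle arrays. For Ndrg1 MEKi 2 stood alone, and the other 3 arrays lay within 0.69 log2 units of each other. By label the log2 fold change was 0.95 for Ndrg1 (SE 0.66, limma adjusted p = 1) and 0.77 for Car9 (SE 0.88, limma adjusted p = 1). Leaving out 1 array moved both widely. For Ndrg1 the value was 1.76 without MEKi 1, 0.14 without MEKi 2, 1.30 without vehicle 1 and 0.61 without vehicle 2. For Car9 it was 1.60 without MEKi 1, −0.0508 without MEKi 2, 1.62 without vehicle 1 and −0.0705 without vehicle 2. Ndrg1 and Pdk1 were at an unadjusted p under 0.05 without MEKi 1, with a lowest adjusted p among the members of 0.956 (limma).

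The mitophagy receptor genes Bnip3 and Bnip3l had the same array order over different spans. Bnip3 read 9.97 and 11.11 in the MEKi arrays, against 10.68 and 9.74 in the vehicle arrays. Bnip3l read 11.14 and 11.58 in the MEKi arrays, against 11.35 and 10.96 in the vehicle arrays, and its 3 probe sets ranged between 0.58 and 1.05. Mxi1, a Max partner that opposes Myc, read 9.06 and 10.26 in the MEKi arrays, against 10.00 and 9.20 in the vehicle arrays. A second, dimmer Mxi1 probe set was also highest in MEKi 2 and vehicle 1, over 1.88 log2 units.

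Some targets hardly varied with the brightest probe set. Kdm3a, a histone H3 lysine demethylase, read 10.16 and 10.21 in the MEKi arrays, against 10.09 and 10.19 in the vehicle arrays. Higd1a, a protein of the inner mitochondrial membrane, read 10.09 and 10.33 in the MEKi arrays, against 10.18 and 10.23 in the vehicle arrays, but its 2 dimmer probe sets ranged over 0.780 and 0.975 and were highest in MEKi 2 and vehicle 1. Ankrd37, an ankyrin repeat gene, read 7.35 and 7.58 in the MEKi arrays, against 7.46 and 7.24 in the vehicle arrays. Such flat members stood beside steep ones in every role, and the promoter windows of Kdm3a and Pfkfb3 shown above held a core like those of Egln3 and Car9.

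**Figure D2:**
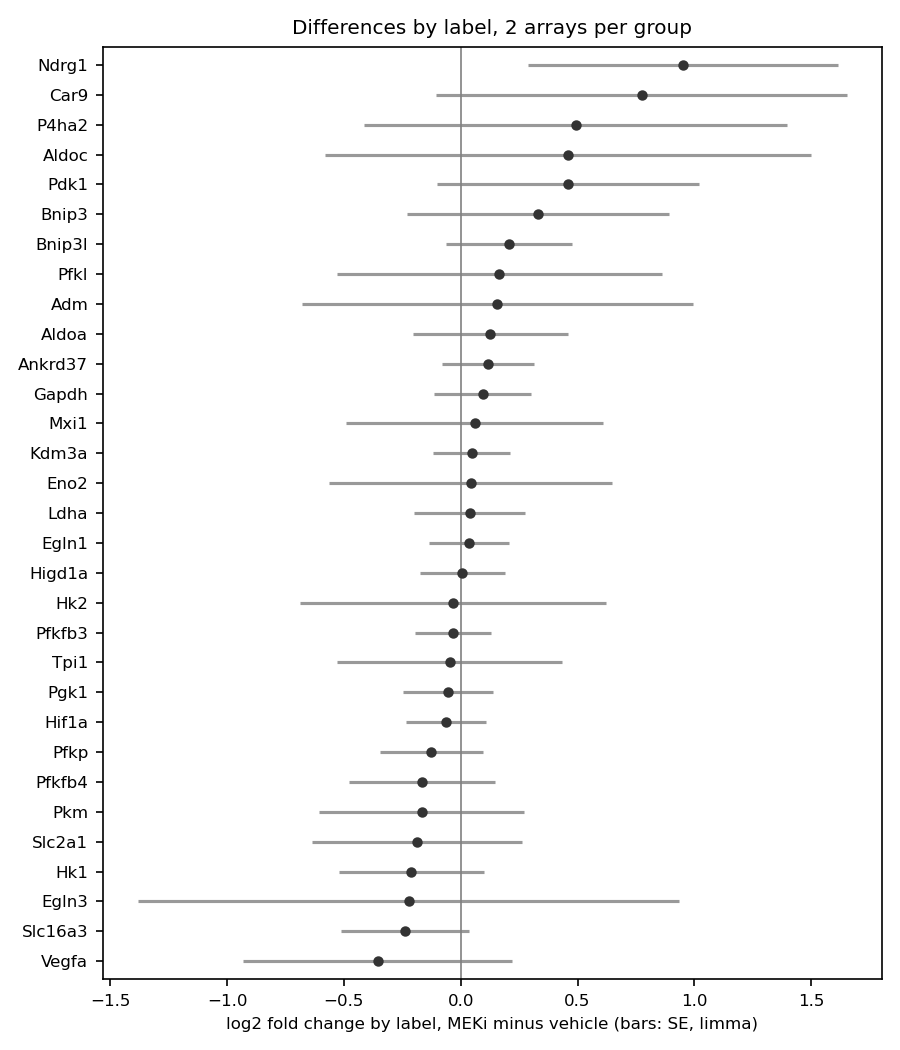
Log2 fold change by label (MEKi minus vehicle, horizontal axis) of the 31 measured members with its standard error from limma, ordered by value, with 2 arrays in each group. Values run from −0.36 (Vegfa) to 0.95 (Ndrg1), and 0 of 31 members were called.

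Several probe sets were available for 17 members. Of their 23 further probe sets, 20 were highest in MEKi 2 and vehicle 1, and 6 had a log2 fold change by label of the opposite sign to the brightest one (Slc2a1, Hk1, Pfkl, Pfkfb3, Vegfa and Higd1a). All of these opposite values were below 0.5 in size. The array order was therefore seen with most probe sets, while the sign by label depended on the probe set for these 6 genes.

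Single arrays were also set against each other, with no test, since each side then holds 1 array. Between MEKi 1 and vehicle 1, 28 of 31 members were lower in MEKi 1 (median −0.67), and 8 lay more than 1 log2 unit apart, all lower in MEKi 1, against 15.4% of all genes in either direction. Between MEKi 2 and vehicle 2, 29 of 31 were higher in MEKi 2 (median 0.62), and 12 lay more than 1 log2 unit apart, all higher in MEKi 2, against 17.4% of all genes. The arrays that share a number in the labels thus differed in opposite directions.

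Between MEKi 1 and vehicle 2, 13 members were higher and 18 lower (median −0.03), and 0 lay more than 1 log2 unit apart, against 1.12% of all genes. Between MEKi 2 and vehicle 1, 23 were higher and 8 lower (median 0.14), and 2 lay more than 1 log2 unit apart (Ndrg1, 1.42, and P4ha2, 1.00), against 6.60% of all genes. Within the labels the differences were as large as across them. MEKi 2 and MEKi 1 lay more than 1 log2 unit apart in 13 of 31 members (19.9% of all genes), all higher in MEKi 2, and vehicle 1 and vehicle 2 in 7 of 31 (11.7% of all genes), all higher in vehicle 1. Between MEKi 2 and vehicle 1, hypoxia targets had a median difference of 0.26 and were higher in 10 of 11, whereas lower glycolysis genes had a median difference of 0.04 and were higher in 5 of 7.

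**Figure D3:**
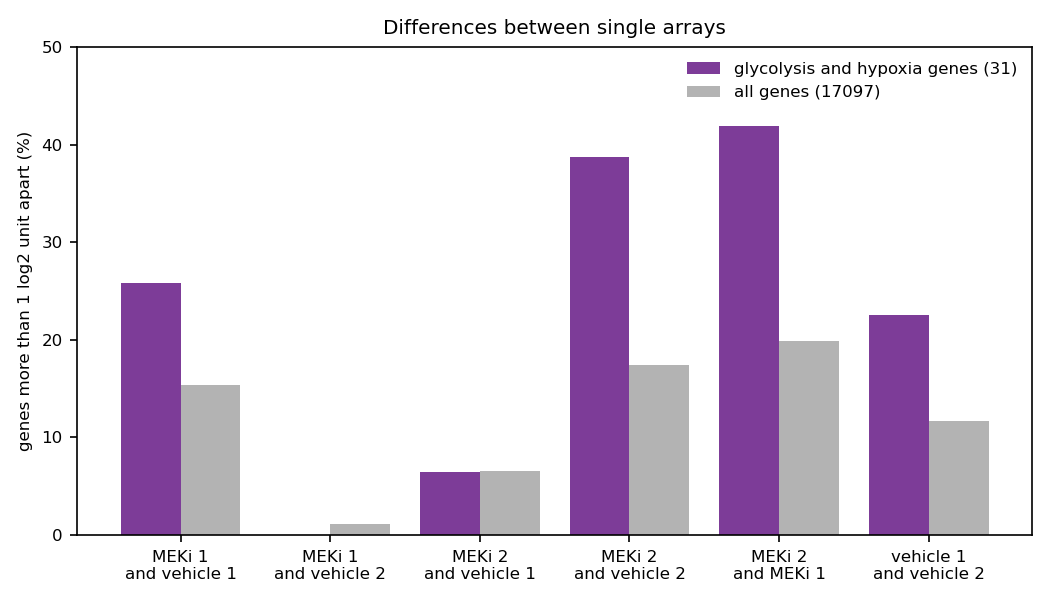
Percentage of genes more than 1 log2 unit apart (vertical axis, from 0) between each pair of single arrays, for the 31 glycolysis and hypoxia genes (purple) and for all 17097 genes (grey). The share of members is highest between MEKi 2 and MEKi 1 (13 of 31 members, against 19.9% of all genes) and is 0 of 31 between MEKi 1 and vehicle 2.

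Further genes of the same pathways followed the order less uniformly. Of 37 measured further hypoxia targets, 21 were highest in MEKi 2 and vehicle 1 (56.8%), and of 26 further sugar metabolism genes 11 were (42.3%), beside 30.0% of all genes. Slc16a1, which encodes the lactate transporter MCT1, read 9.81 and 11.37 in the MEKi arrays, against 11.31 and 10.27 in the vehicle arrays. Eno3, the muscle enolase, read 9.29 and 11.15 in the MEKi arrays, against 10.54 and 9.56 in the vehicle arrays. Slc2a3, which encodes the transporter GLUT3 and is abundant in leukocytes, had the opposite order, at 9.78 and 8.43 in the MEKi arrays, against 7.80 and 9.70 in the vehicle arrays. Fbp1, which runs the phosphofructokinase step backwards in gluconeogenesis, read 5.14 and 6.35 in the MEKi arrays, against 6.93 and 6.19 in the vehicle arrays, and Hk3, a hexokinase of myeloid cells, read 7.23 and 7.22, against 8.62 and 6.93. By limma, 0 of the 26 and 0 of the 37 were called.

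A few hypoxia targets set MEKi 2 apart from all other arrays. Tgfb3, a TGF-β ligand gene, read 8.26 and 11.22 in the MEKi arrays, against 9.64 and 8.39 in the vehicle arrays, and Car12, a second carbonic anhydrase gene, read 5.70 and 7.90, against 5.98 and 5.27. Stc2, a secreted stanniocalcin, was lowest there, at 7.40 and 4.59 in the MEKi arrays, against 7.54 and 7.68 in the vehicle arrays. Lox, a collagen cross-linking enzyme gene, read 8.54 and 7.52 in the MEKi arrays, against 9.77 and 8.91 in the vehicle arrays, and both MEKi values lay below both vehicle values (log2 fold change −1.32, limma adjusted p = 1). Hypoxia targets thus lay on both sides in MEKi 2.

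The 10 further genes of the HIF system ran mostly against the members, with 7 of 10 highest in MEKi 1 and vehicle 2. Their median range was 0.48, against 0.55 in all genes, so in many of them this order rested on small differences. Epas1, which encodes the HIF-2α subunit typical of endothelium, read 10.55 and 8.91 in the MEKi arrays, against 10.12 and 10.34 in the vehicle arrays. Hif1an, the asparaginyl hydroxylase that restrains HIF activity, read 8.62 and 7.61 in the MEKi arrays, against 7.88 and 8.59 in the vehicle arrays. Arnt, the constant partner of the HIF-α subunits, followed the members, at 8.93 and 9.60 in the MEKi arrays, against 9.39 and 8.59 in the vehicle arrays. Myc, a known activator of glycolytic genes, read 10.17 and 11.08 in the MEKi arrays, against 10.92 and 10.22 in the vehicle arrays. By limma, 0 of these genes were called.

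Mitochondrial respiratory subunits, as a comparison, hardly moved. Their range over the arrays had a median of 0.29 over 18 genes, against 0.96 in the members, and 5 of 18 were highest in MEKi 2 and vehicle 1. Ubiquitous reference genes had a median range of 0.19 over 9 genes. Measured as the deviation of a gene from its own mean over the 4 arrays, the median deviation of the hypoxia targets was −0.40 and 0.63 in the MEKi arrays, against 0.30 and −0.43 in the vehicle arrays. That of upper glycolysis was −0.49 and 0.40 in the MEKi arrays, against 0.32 and −0.28 in the vehicle arrays, and that of lower glycolysis was −0.35 and 0.23, against 0.17 and −0.15.

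Markers of other cell types moved with these deviations. All 9 measured B cell genes, all 11 T cell genes and all 7 genes of lymph node stroma were highest in MEKi 1 and vehicle 2, the order opposite to that of the members. Summed levels of the T cell genes on the log2 scale were 13.59 and 8.91 in the MEKi arrays, against 9.80 and 13.57 in the vehicle arrays. Those of the lymph node stroma genes were 14.26 and 12.57, against 11.73 and 14.13. Clu made up most of that sum in MEKi 2 (12.55) and vehicle 1 (11.66). The median level of the 7 stroma genes was 11.53 and 3.83 in the MEKi arrays, against 3.94 and 11.28 in the vehicle arrays. The defining B cell gene Ms4a1 read 12.21 and 3.97 in the MEKi arrays, against 4.15 and 11.61 in the vehicle arrays, so it was close to the floor of the arrays (25th percentiles up to 3.88) in MEKi 2 and vehicle 1. Macrophage genes ran with the members, with 9 of 11 highest in MEKi 2 and vehicle 1 and summed levels of 14.04 and 14.56 in the MEKi arrays, against 15.27 and 14.49 in the vehicle arrays. MAPK output genes, transcripts raised by ERK, did so in 14 of 16, with median deviations of −1.30 and 1.11 in the MEKi arrays, against 0.58 and −0.38 in the vehicle arrays. The part of these cell types, and of ERK output, in the levels of the glycolysis and hypoxia genes was not tested.

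Epithelial, fibroblast, adipocyte and neutrophil genes mostly had other orders. The median deviation of 12 tumor epithelial genes was −0.20 and −0.71 in the MEKi arrays, against 0.51 and 0.27 in the vehicle arrays, with summed levels of 12.22 and 13.11, against 14.11 and 13.21. Of these epithelial genes 2 of 12 (Krt8 and Krt18), of fibroblast genes 2 of 9, and of adipocyte genes 1 of 7, were highest in MEKi 2 and vehicle 1. The neutrophil genes S100a8 and S100a9 were higher in both MEKi arrays than in both vehicle arrays (S100a8 read 9.99 and 11.10, against 6.17 and 7.70), with limma adjusted p = 1. Mmp9, of the same list, was lower in both, at 7.37 and 8.89, against 11.23 and 9.39. Of the 9 neutrophil genes, 7 had a positive fold change by label and 2 a negative one, and 2 had the members' order. All 12 epithelial genes had a negative fold change by label (median −1.05), as did all 11 macrophage genes (median −0.50). So did all 7 adipocyte genes (median −1.93), all 11 T cell genes (−0.43), all 8 blood endothelial genes (−0.25) and all 7 acute stress genes (−0.29). The part of these differences in the members' values was not tested. Genes of the acute stress list were highest in MEKi 2 and vehicle 1 in 4 of 7, and blood endothelial genes in 4 of 8.

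**Figure D4:**
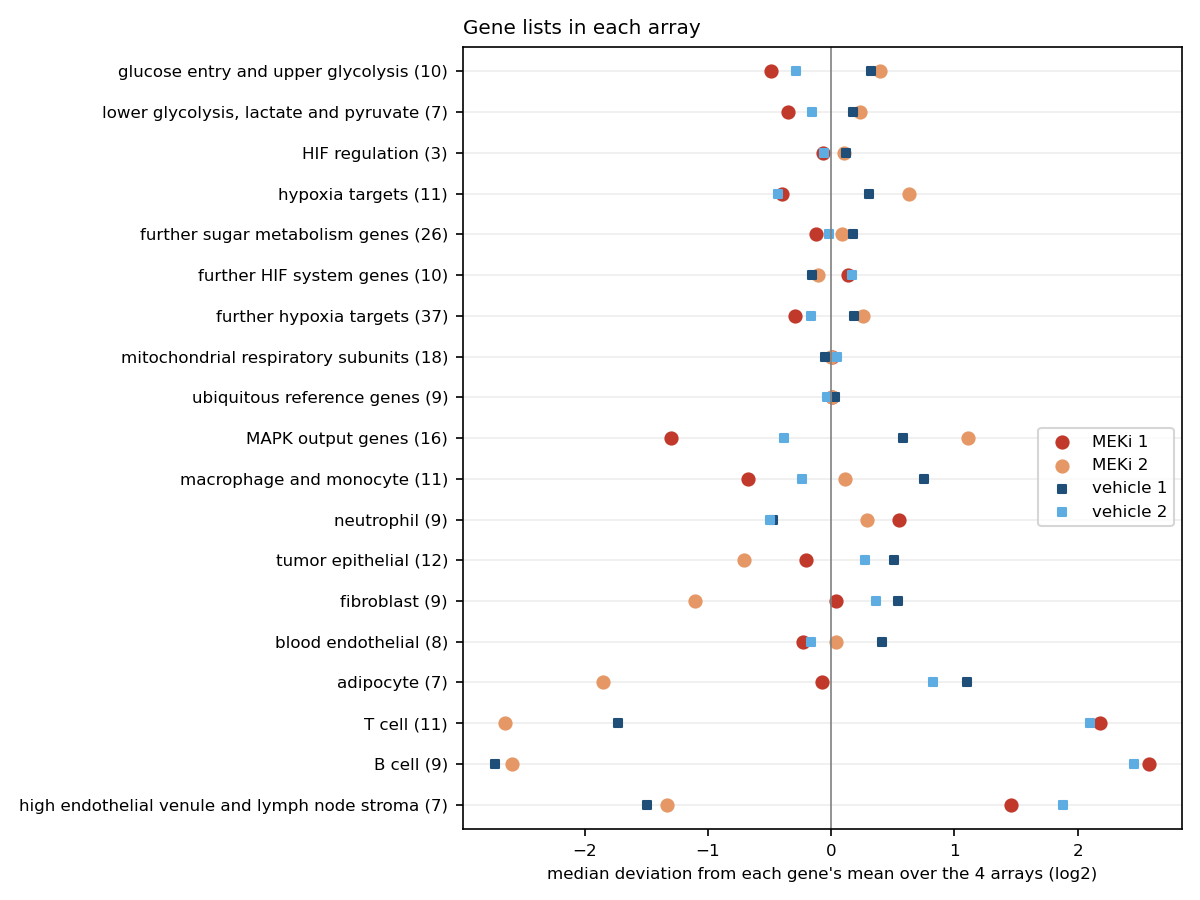
Median deviation of each gene list from the genes' own means over the 4 arrays (log2, horizontal axis), 1 point per array, with circles for MEKi 1 and MEKi 2, squares for vehicle 1 and vehicle 2, and the number of measured genes in parentheses. Hypoxia targets lie at 0.63 in MEKi 2 and 0.30 in vehicle 1, while B cell, T cell and lymph node stroma genes lie on the opposite sides.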

How the data were processed

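Bulk RNA of 4T1Ch9 tumors was hybridised to Affymetrix MG-430PM arrays. The authors deposited log2 expression values per probe set and array, made with RMA, and their methods name quantile normalization with the AFFY package in R. Scanner files were not used here. Of 45141 probe sets, 104 controls were left out and 45037 tested. In the platform annotation 28898 have 1 gene symbol, 551 several and 15588 none, and 28689 matched RefSeq by Entrez identifier, with 0 symbols changed.

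Arrays were grouped by their labels and fitted with limma 3.58.1 in R 4.3.3. The fit was tested on simulated data with independent noise, which does not show its power in these arrays. Further lists were described by counts and medians. Members and lists were chosen with earlier results of these data known. Values are printed for the members of widest and narrowest range, of the 5 highest and 5 lowest fold changes and with probe sets of opposite sign, and for up to 4 further genes per list by range. The remaining members, Slc16a1, Pfkm, Myc, Dusp6 and the cell type genes named were picked with their values in view. The alternatives tried were a stricter adjusted p (0.05), a trend with intensity, unmoderated variances, removal of the dimmest probe sets (a fraction of 0.25), centring on reference or on epithelial genes, a replicate block, omission of each array, other probe set choices and, added after seeing the data, crossed pairing. Tables and figures were made in Python 3.11.15.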

Additional observations from a re-analysis of the deposited data

How the results depend on the processing

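The count of called members stayed at 0 under every alternative run, as did the count of called probe sets except where arrays were centred on tumor epithelial genes. That centring added 1.02 to every log2 fold change, called 16 probe sets, and gave a members' median of 1.06 and log2 fold changes of 0.67 for Vegfa, 0.78 for Slc16a3, 0.80 for Egln3, 0.81 for Hk1 and 0.84 for Slc2a1, all negative in the values as deposited. Aldoc, Pdk1, Car9, Ndrg1 and P4ha2 were then at an unadjusted p under 0.05 (limma), all with the same SE of 0.74. The lowest adjusted p of a member was 0.300 (limma). The brightest plain probe set gave 0.0581 for Slc2a1, against −0.19 for the one used, 0.22 for Aldoc (0.46) and 0.76 for Pdk1 (0.46). The mean of all probe sets gave −0.12 for Vegfa (−0.36), −0.0594 for Hk1 (−0.21) and −0.0645 for Slc2a1. When each array was left out in turn, the members' median ran from −0.24 to 0.31, and the log2 fold change ran from 0.14 to 1.76 for Ndrg1, −0.95 to 0.24 for Vegfa, −1.55 to 1.11 for Egln3, −0.53 to 0.10 for Hk1, −0.68 to 0.31 for Slc2a1, −0.0705 to 1.62 for Car9, −0.59 to 1.57 for P4ha2, −0.75 to 1.67 for Aldoc and −0.23 to 1.15 for Pdk1. Where 1 array remained in a group, it was assumed to vary like the arrays of the other. With the replicate number as a block, 0 members and 0 probe sets were called, and the median stayed at 0.04. Deviations from the group means of arrays that share a number correlated at −0.764 across probe sets. A block that crosses the pairing, added after seeing the data, called 0 members and 0 probe sets. Car9 and Ndrg1 were at an unadjusted p under 0.05 with it (limma). The cause of these changes was not tested.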
